A study of Mus musculus with 8 samples.

Results

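Mouse E14 embryonic stem cells labelled as double knockouts (KO) of Ago1 and Ago2 (Ago1_2 KO) were compared directly with E14 cells labelled as KO of Dgcr8 (Dgcr8 KO). The comparison uses 4 of the 8 libraries of the series, 2 for each genotype, chosen by their labels. Wild-type (WT) and Drosha KO cells, with 2 libraries each, are given as background levels only. All cells were of the 129/Ola background and grown in 2i, a medium with LIF and inhibitors of MEK and GSK3 that holds stem cells in a naive state, so every group shared those inhibitors. Polyadenylated RNA was sequenced, and total counts per gene were 24172661 and 13229771 in Ago1_2 KO and 18361044 and 15575868 in Dgcr8 KO. The labels do not say how the knockouts were made, whether a genotype is 1 clone, or whether its libraries came from separate cultures, so p-values measure only the spread between these samples, which may be technical.

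MicroRNAs (miRNAs) are cut from long primary transcripts in the nucleus by the Microprocessor, in which DGCR8 binds the RNA hairpin and DROSHA cuts it. Dicer trims the product, and Argonaute proteins carry the mature miRNA to target mRNAs, which they repress through the seed, bases 2 to 8 of the miRNA. Loss of DGCR8 therefore stops canonical miRNAs from being made, while loss of AGO1 and AGO2 removes proteins that the finished miRNA acts through. In embryonic stem cells the miR-290 and miR-17 families dominate this pathway, and they promote rapid cycling and dampen differentiation genes.

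Polyadenylated libraries read primary miRNA transcripts rather than mature miRNAs. The annotated miRNA genes with enough counts to be tested were called lower in Ago1_2 KO more often than genes at large. The mature products of 9 of those genes that carry AAGUGC within the seed bases follow, with their seeds in capitals (RefSeq, GRCm38.p6), because they show that the genes lower in Ago1_2 KO encode overlapping seeds from separate chromosomes.
miR-290a-3p: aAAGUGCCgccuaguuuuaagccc
miR-291a-3p: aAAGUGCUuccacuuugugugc
miR-291b-3p: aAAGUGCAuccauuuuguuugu
miR-294-3p: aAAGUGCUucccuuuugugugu
miR-295-3p: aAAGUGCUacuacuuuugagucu
miR-20a-5p: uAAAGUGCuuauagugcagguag
miR-20b-5p: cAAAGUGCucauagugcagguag
miR-93-5p: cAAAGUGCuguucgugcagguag
miR-106a-5p: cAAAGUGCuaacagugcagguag
The first 5 come from the miR-290 cluster on chromosome 7 and place AAGUGC at the start of the seed. The other 4 come from chromosomes 14, X, 5 and X, in that order, and place it at the end of the seed. Genes with other seeds were also lower, among them Mir27b and Mir24-1 on chromosome 13, with a product of each shown here.
miR-27b-3p: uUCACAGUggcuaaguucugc
miR-24-3p: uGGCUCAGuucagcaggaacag

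The targeted genes were read first. Dgcr8 mRNA (ENSMUSG00000022718.11, GRCm38 chromosome 16, 18253948 to 18289246) stood at 91.2 and 82.9 CPM in Ago1_2 KO and 392 and 370.2 CPM in Dgcr8 KO, in CPM, counts scaled to library size. The libraries of the groups did not overlap, and the log2 fold change of Ago1_2 KO over Dgcr8 KO was -2.13 ± 0.20 (SE, edgeR adjusted p 0.000483). Its level was 78.1 and 70.5 CPM in WT and 304 and 234 CPM in Drosha KO, so the libraries of both Microprocessor knockouts lay above those of the cells with intact Microprocessor genes. Dgcr8 mRNA holds hairpins that the Microprocessor is known to cut. Mir1306 (chromosome 16, 18284239 to 18284317), a miRNA gene inside Dgcr8, had no counts in either Dgcr8 KO library and 2.43 and 2.62 CPM in Ago1_2 KO. Set against a group floor of 3 counts, Mir1306 was at least 28.8-fold higher in Ago1_2 KO. How reads were shared between overlapping genes is not stated.

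Ago2 (chromosome 15, 73095844 to 73184935), which encodes the Argonaute able to cut target RNA, was lower in Ago1_2 KO, at 216 and 195 CPM in Ago1_2 KO and 522 and 396 CPM in Dgcr8 KO. Its log2 fold change was -1.16 ± 0.33 (SE, edgeR adjusted p 0.0377), or -1.06 with an offset for transcript GC content, where the adjusted p was 0.0541. Ago2 stood at 464 and 227 CPM in WT and 1070.5 and 809 CPM in Drosha KO. Ago1 (chromosome 4, 126435012 to 126468583), the other deleted Argonaute gene, had 160.2 and 87.8 CPM in Ago1_2 KO and 188 and 151 CPM in Dgcr8 KO and was not called, at -0.45 ± 0.36 (SE, edgeR adjusted p 0.419). The Ago1 libraries of the groups overlapped. The undeleted Ago3 and Ago4 were not called either, with log2 fold changes of -0.44 ± 0.38 and -0.41 ± 0.50 and edgeR adjusted p of 0.458 and 0.61. Ago4 was scarcely transcribed, at 1.55 and 1.87 CPM in Ago1_2 KO and 2.16 and 2.35 CPM in Dgcr8 KO. Drosha, at 339 and 361 CPM in Ago1_2 KO and 254 and 282 CPM in Dgcr8 KO, was not called (log2 fold change 0.38 ± 0.23 SE, edgeR adjusted p 0.279). A small deletion can spare most reads of a transcript, so mRNA levels of Ago1, Ago2 and Dgcr8 are no check of those labels. A library left out in turn ended the calls of Ago2 (0.228) without each of the 4 libraries compared, where the value in parentheses, here and below, is the largest adjusted p over the 8 fits with a library left out.

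**Figure D1:**
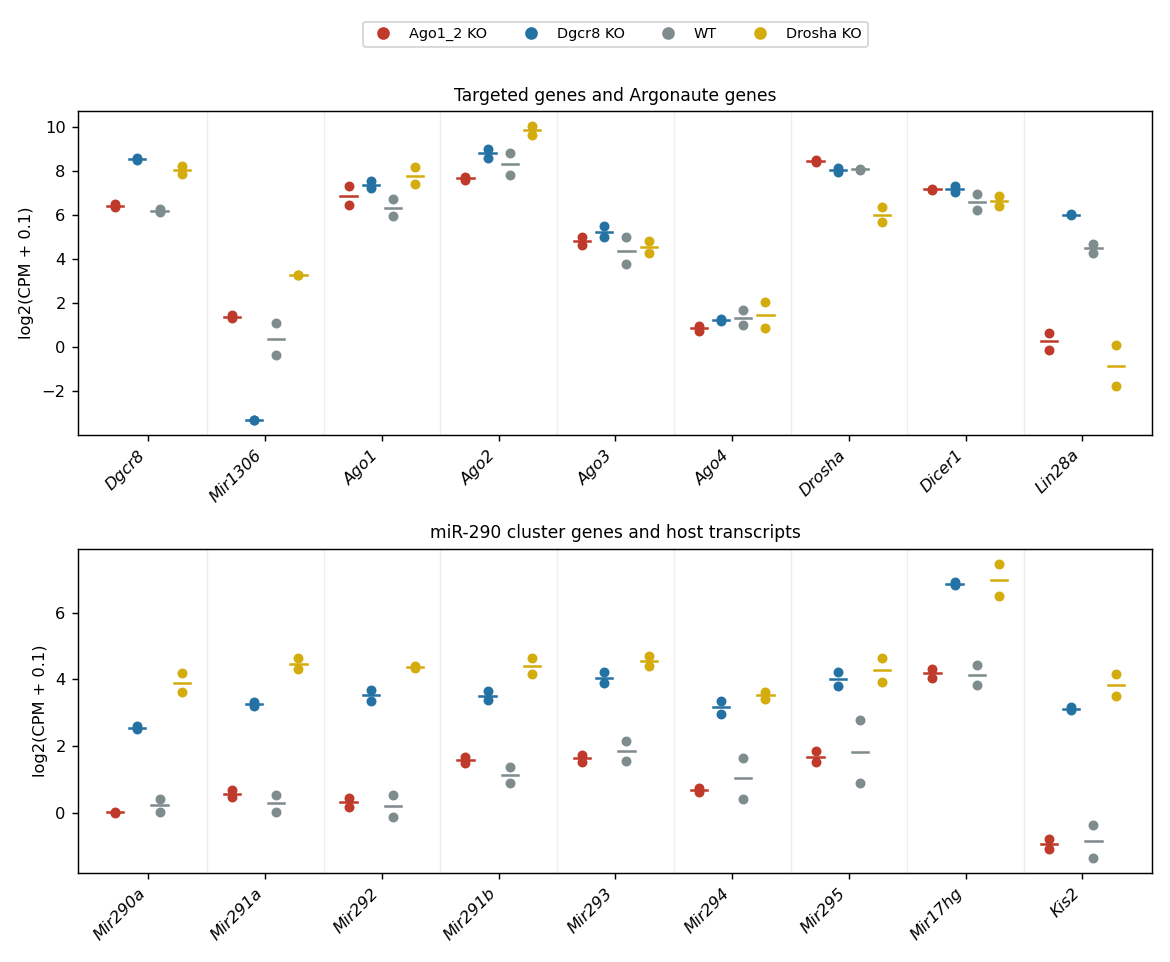
Level of targeted and Argonaute genes with Mir1306, Dicer1 and Lin28a (top), and of miR-290 cluster genes and host transcripts (bottom), as log2(CPM + 0.1). Points are libraries, 2 per genotype, and short lines are their means. Mir1306 is at 0 in both Dgcr8 KO libraries, and each cluster gene is lower in both Ago1_2 KO libraries than in both Dgcr8 KO libraries.

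In all, 2808 of 16388 genes tested (17.1%) were called at an adjusted p under 0.05, of which 1900 (11.6%) were higher and 908 (5.54%) lower in Ago1_2 KO. An unadjusted p under 0.05 was seen for 5390 genes. The change was over 2-fold for 1602 of those higher and 536 of those lower, and the median over all genes tested was -0.03 on the log2 scale. In each of the 2808 called genes the libraries of the groups did not overlap, as in 74.3% of all genes tested. The call rests on a spread estimated from all 8 libraries: a fit of the 4 libraries alone called 7171 genes, 4024 higher and 3147 lower. Leaving out Ago1_2 KO 1, Ago1_2 KO 2, Dgcr8 KO 1 or Dgcr8 KO 2 gave 1097, 724, 513 and 580 calls, and counts per gene list below follow that order. Leaving out WT 1 or WT 2 gave 4239 and 4234. The 47 gene lists described below held 1372 distinct genes that were tested, of which 218 were higher and 116 lower. Shares per list are over members that passed the low-count filter. A gene can pass it through a single genotype, so members low in all libraries drop out of these shares.

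**Figure D2:**
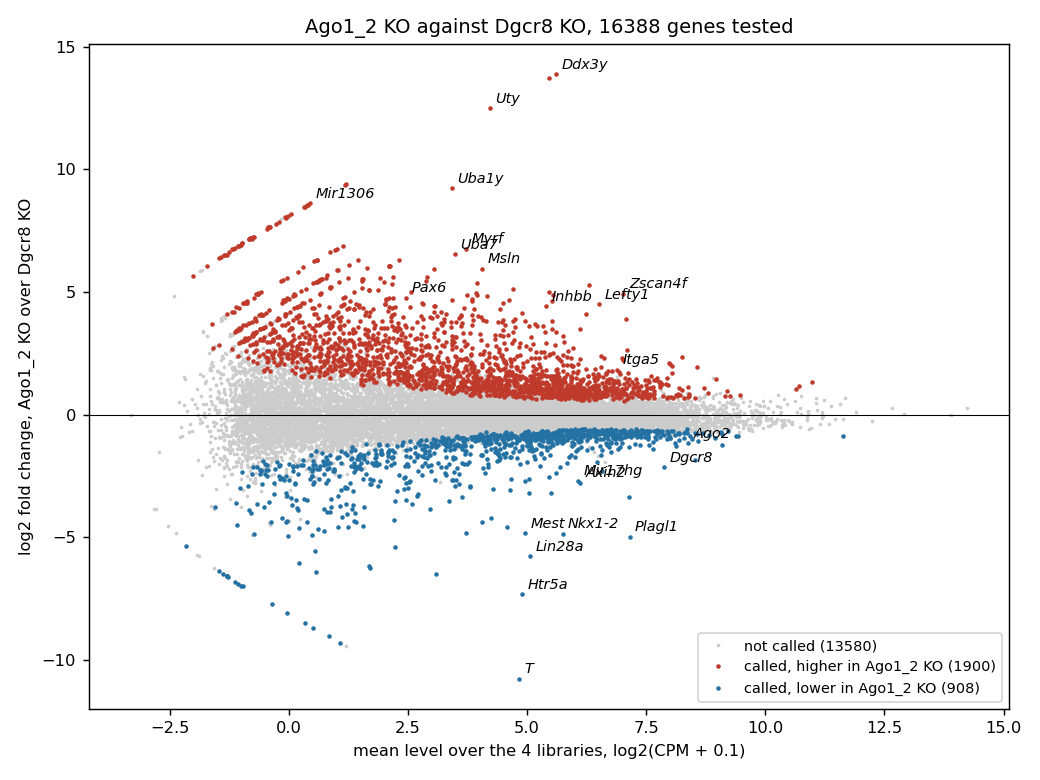
Log2 fold change of Ago1_2 KO over Dgcr8 KO against the mean level of the 4 libraries, 1 point per gene tested, with called genes in colour. Of the 1900 genes called higher in Ago1_2 KO 1602 lie above a 2-fold change, and of the 908 called lower 536 do.

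Library-wide features differed between the groups and stand beside every result below. Fold changes followed transcript GC content: over 5 equal bins of genes from the lowest content to the highest, medians were -0.35, -0.21, -0.07, 0.12 and 0.48, and a fit with a GC offset called 2367 genes, sharing 1973. By chromosome, genes of chromosome 15 had a median of 0.49, with 161 of 613 higher, and genes of chromosome 17 a median of 0.21, with 136 of 789 higher. Medians were lower for chromosome 13 (-0.27, with 67 of 564 lower) and X (-0.25, with 75 of 630 lower). Against WT, which both groups share, the chromosome 15 median was 0.15 in Ago1_2 KO and -0.42 in Dgcr8 KO. Chromosome 15 carries Ago2, Itga5, Itgb7, Myh9, Srebf2, Sqle, Pfkm, Krt7, Apobec3 and the Hoxc genes named here. Chromosome 13 carries Mir27b and Mir24-1, and chromosome 17 carries Tapbp, H2-K1, Eif2ak2, Pou5f1 and Mir7677. Kis2, Mir20b, Mir106a and the Xlr and Rhox genes lie on X. These are examples, and other genes named here lie on the same chromosomes. Genes annotated on chromosome Y summed to 10387 and 5993 counts in Ago1_2 KO and 1830 and 1602 in Dgcr8 KO, not scaled to library size. The list of 9 Y-linked genes summed to 239 and 251 CPM in Ago1_2 KO and 0 and 0.0635 CPM in Dgcr8 KO. Nearly all of the Dgcr8 KO counts therefore fell on other genes annotated there. The part of GC content, chromosome dosage or library preparation in the calls was not tested beyond the GC offset.

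**Figure D3:**
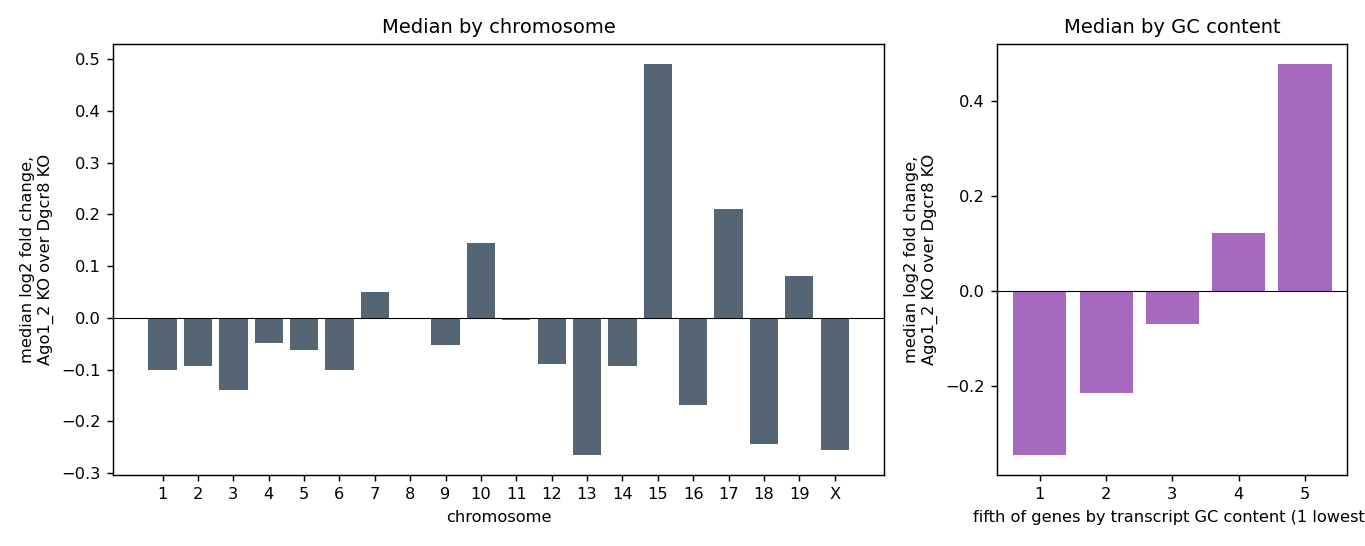
Median log2 fold change of Ago1_2 KO over Dgcr8 KO by chromosome (left, without Y and the mitochondrial genome) and by 5 equal bins of transcript GC content (right). Chromosome 15 stands at 0.49, and the GC medians climb from -0.35 to 0.48.

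Both groups carried embryonic stem cell markers at high levels. Pou5f1, the core pluripotency factor gene Oct4, had 949 and 1108 CPM in Ago1_2 KO and 723 and 780.1 CPM in Dgcr8 KO, and Nanog, another core factor, had 992 and 1135 CPM in Ago1_2 KO and 793 and 849 CPM in Dgcr8 KO. None of the 8 markers was called by edgeR, DESeq2 or limma-voom, and 1 had an unadjusted p under 0.05 in edgeR, while the fit of the 4 libraries alone called 6 higher. Of 20 fibroblast and feeder markers 7 passed the low-count filter. Of these 3 were higher (42.9%, against 11.6% of all genes), Thy1, Col1a1 and Twist1. For 6 of the 7 both Ago1_2 KO libraries lay above both Dgcr8 KO libraries, as for 36.2% of all genes tested. The list summed to 101 and 138 CPM in Ago1_2 KO and 84.3 and 77.2 CPM in Dgcr8 KO, most of it Fbln1, which was not called. Defining markers were at or near 0 in both groups: Twist2 and S100a4 had no counts, and Col1a2, Col3a1, Dcn and Lum stayed between 0 and 0.299 CPM in the 4 libraries. Leaving out single libraries ended the calls of Col1a1 (0.185) without Ago1_2 KO 1, Ago1_2 KO 2 or Dgcr8 KO 1; Twist1 (0.301) without each of the 4 libraries compared. With the GC offset the call of Twist1 (0.97, adjusted p 0.139) ended, where the value before the adjusted p is the log2 fold change in that fit.

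Genes read from primary miRNA transcripts were called lower in Ago1_2 KO more often than higher. Of 1180 annotated miRNA genes, 650 had no counts in either group and 166 were tested. Of those tested, 37 were lower and 5 higher (22.3% and 3.01%, against 5.54% and 11.6% of all genes). The list median was -0.36, also when the 12 genes without counts in 1 group were set at their bound. Members without counts in Ago1_2 KO, such as Mir20b, passed the low-count filter only through other genotypes, so these shares depend in part on the filter. Of the 11 genes tested with an arm that holds AAGUGC in bases 2 to 8 among the RefSeq sequences used, 9 were lower. Those sequences held only the 5p arm of Mir292, so its 3p arm was not searched. In the miR-290 cluster, the main miRNA locus of naive stem cells, 7 of 7 tested genes were lower. Mir291a (chromosome 7, 3218919 to 3219000) had 1.27 and 1.5 CPM in Ago1_2 KO and 9.02 and 9.91 CPM in Dgcr8 KO, a log2 fold change of -2.78 ± 0.33 (SE, edgeR adjusted p 0.00109). The largest change of the cluster was that of Mir292, at 1.03 and 1.27 CPM in Ago1_2 KO and 10.1 and 12.8 CPM in Dgcr8 KO (log2 fold change -3.33 ± 0.35 SE, edgeR adjusted p 0.000703). Mir294 had 1.43 and 1.57 CPM in Ago1_2 KO and 7.65 and 10.2 CPM in Dgcr8 KO (log2 fold change -2.57 ± 0.44 SE, edgeR adjusted p 0.00505), and Mir291b changed least, by -1.98 ± 0.32. For each of the 7 genes both WT libraries lay below both Dgcr8 KO libraries, as with Mir292 at 1.35 and 0.822 CPM in WT and 20.8 and 20 CPM in Drosha KO. These 7 genes lie in 1 cluster and are not independent of each other. Mir93, whose product is shown above, was called narrowly (log2 fold change -1.86 ± 0.57 SE, edgeR adjusted p 0.0496). With 1 library left out, calls were lost for Mir294 (0.0507) without Ago1_2 KO 1 or Dgcr8 KO 2; Mir295 (0.132) without each of the 4 libraries compared; Mir93 (0.301) without each of the 4 libraries compared or Drosha KO 1 or Drosha KO 2.

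Members of other miRNA clusters were called lower too. Mir17hg, the host transcript of the miR-17-92 cluster (chromosome 14, 115042879 to 115046727), stood at 19.7 and 16.5 CPM in Ago1_2 KO and 121 and 112 CPM in Dgcr8 KO, and its log2 fold change was -2.69 ± 0.33 (SE, edgeR adjusted p 0.00123). It had 14.1 and 21.3 CPM in WT and 176 and 90.9 CPM in Drosha KO, so the Ago1_2 KO libraries lay in the range of WT. Kis2, the host of the miR-106a-363 cluster on X, had 0.478 and 0.374 CPM in Ago1_2 KO and 8.81 and 8.32 CPM in Dgcr8 KO (log2 fold change -4.28 ± 0.47 SE, edgeR adjusted p 0.000812). Within it Mir20b had no counts in Ago1_2 KO against 2.01 and 2.67 CPM in Dgcr8 KO, at least 29.6-fold lower, and Mir106a was lower by 82.1-fold (exact 95% binomial interval 14.3 to 3287). On chromosome 13, Mir27b and Mir24-1, whose seeds are shown above, changed by -4.57 ± 0.53 and -4.35 ± 0.47. The miRNA genes higher in Ago1_2 KO were Mir1306, Mir6418, Mir6963, Mir7677 and Mir2139. Host transcripts as a list had 8 of 21 lower and 3 higher (38.1% and 14.3%, against 5.54% and 11.6% of all genes), with a median of -0.48. They share reads with the miRNA genes they hold, and miRNA genes of 1 cluster share a transcript. When the 4 compared libraries were left out singly, 2, 1, 1 and 1 miRNA genes were higher and 16, 17, 18 and 18 were lower; there were 3 higher and 34 lower with the GC offset, 12 higher and 46 lower in the fit of the 4 libraries alone and 8 higher and 36 lower without WT 2. Across the 4 fits lacking 1 compared library, 2, 2, 0 and 1 hosts were higher and 6, 5, 5 and 5 were lower. Lost calls under single left-out libraries were those of Mir2139 (0.257), Mir6963 (0.166) and Mir7677 (0.173) without each of the 4 libraries compared; Mir6418 (0.113) without Ago1_2 KO 2, Dgcr8 KO 1 or Dgcr8 KO 2. The GC offset ended the calls of Mir2139 (1.38, adjusted p 0.166) and Mir7677 (3.50, adjusted p 0.0587).

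Among 27 genes of the miRNA machinery, 4 were called, 1 higher and 3 lower (3.7% and 11.1%, against 11.6% and 5.54% of all genes). There were 2 higher and 2 lower with the GC offset, 7 higher and 5 lower in the fit of the 4 libraries alone and 2 higher and 4 lower without WT 1 or WT 2. Mov10, an RNA helicase that travels with Argonaute and restricts retroelements, was higher at 397 and 449 CPM in Ago1_2 KO and 107 and 104 CPM in Dgcr8 KO (log2 fold change 2.00 ± 0.19 SE, edgeR adjusted p 0.000483). Lin28a, which blocks let-7 maturation and is a pluripotency RNA-binding gene, was nearly silent in Ago1_2 KO at 1.47 and 0.823 CPM in Ago1_2 KO and 64.5 and 66 CPM in Dgcr8 KO (log2 fold change -5.76 ± 0.49 SE, edgeR adjusted p 0.000344). It had 19.5 and 26.1 CPM in WT and 0.965 and 0.194 CPM in Drosha KO, so the order of genotypes from high to low was Dgcr8 KO, WT, Ago1_2 KO and Drosha KO. Neighbours in that order did not overlap, apart from Ago1_2 KO and Drosha KO. Dgcr8 and Ago2 were the other called members. Dicer1 (148 and 141 CPM in Ago1_2 KO and 159 and 135 CPM in Dgcr8 KO), Xpo5, Tnrc6a, Tnrc6b and Tnrc6c were not called, with log2 fold changes between -0.47 and 0.79. Of 24 genes of deadenylation and mRNA decay, through which Argonaute represses targets, 1 was lower (4.17%, near the 5.54% of all genes). It was Cnot11, a subunit of the CCR4-NOT complex (log2 fold change -0.64 ± 0.19 SE, edgeR adjusted p 0.0496). None of the others was called. Calls that ended when 1 library was left out were those of Cnot11 (0.334) without each of the 4 libraries compared.

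Reported targets of the stem cell miRNAs were mostly not called. Of 27 reported miR-290 family targets 3 were higher, near the background of 11.6%, and 1 was lower, with a list median of 0.43. Tgfbr2, a TGF-beta receptor gene, was higher at 34.4 and 39.3 CPM in Ago1_2 KO and 7.86 and 6.16 CPM in Dgcr8 KO (log2 fold change 2.39 ± 0.27 SE, edgeR adjusted p 0.000847). Lefty1, a secreted Nodal inhibitor, was higher at 162 and 188 CPM in Ago1_2 KO and 9.18 and 6.04 CPM in Dgcr8 KO (log2 fold change 4.51 ± 0.80 SE, edgeR adjusted p 0.00595), with 129 and 15.3 CPM in the Drosha KO libraries. Irf2, an interferon regulatory factor gene, was higher by 2.54 ± 0.56 on the log2 scale, while Dkk1, a Wnt inhibitor, was lower by 25.9-fold (exact 95% binomial interval 8.5 to 129). The cell cycle targets Cdkn1a and Lats2 were not called, at 0.48 ± 0.18 and 0.87 ± 0.39. Over the 4 fits without a compared library, 3, 2, 2 and 1 miR-290 targets were higher and 0 were lower in each fit; there were 5 higher and 1 lower with the GC offset, 13 higher and 1 lower in the fit of the 4 libraries alone, 11 higher and 1 lower without WT 1 or WT 2 and 6 higher and 1 lower without Drosha KO 1 or Drosha KO 2. Among 29 reported let-7 targets and Myc genes 5 were lower (17.2%, against 5.54% of all genes), Plagl1, Lin28a, Peg10, Nras and Mycl. Ccnd2, a D-type cyclin gene, was higher (log2 fold change 4.53 ± 1.01 SE, edgeR adjusted p 0.015). It was the only higher member (3.45%, against 11.6%). With each compared library left out in turn, 0 let-7 targets and Myc genes were higher in each fit and 3, 2, 3 and 3 were lower; there were 7 higher and 7 lower in the fit of the 4 libraries alone, 2 higher and 5 lower without WT 1 or WT 2 and 2 higher and 6 lower without Drosha KO 1 or Drosha KO 2. A library left out in turn ended the calls of Ccnd2 (0.114), Dkk1 (0.109), Mycl (0.157) and Nras (0.161) without each of the 4 libraries compared; Irf2 (0.127) without Ago1_2 KO 2, Dgcr8 KO 1 or Dgcr8 KO 2; Lefty1 (0.0607) without Dgcr8 KO 2; Peg10 (0.0658) without Ago1_2 KO 2. No longer called under the GC offset was Nras (-0.53, adjusted p 0.0579).

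Over all UTR lengths, genes with and without seed matches in their 3′ UTRs had close median fold changes. Among 13350 genes with a 3′ UTR of at least 50 bases, the 2321 with the site AGCACTT, which pairs with the miR-294 seed, had a median log2 fold change of 0.01, and the 11029 without it 0.02. For GCACTTT, the miR-17 site, medians were 0.04 in 1902 genes and 0.02 in 11448. The let-7 site CTACCTC gave 0.02 with and 0.02 without, and the miR-27b site ACTGTGA likewise 0.02 and 0.02. In the longest of 3 equal classes of UTRs, medians with and without the miR-294 site were -0.01 and -0.05. Gaps were wider in shorter classes for other sites: the let-7 site had medians of 0.35 in 128 genes with it and 0.08 in 4323 without in the shortest class, and 0.12 and -0.0022 in the middle class, where the miR-17 site had 0.10 and -0.01. These are descriptions over genes, which are not independent replicates, and both groups compared are knockouts of the miRNA pathway.

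Among the 12 genes with the largest change towards Ago1_2 KO, 4 lie on chromosome Y. Ddx3y had 96.2 and 97.9 CPM in Ago1_2 KO and no counts in Dgcr8 KO, at least 1119-fold higher, Eif2s3y at least 998-fold and Uty at least 417-fold. Uba1y, with 1 count in Dgcr8 KO, was higher by 742-fold (exact 95% binomial interval 133 to 29329). Each of these genes was detected in both libraries of WT and of Drosha KO. Of 9 Y-linked genes listed, 5 were tested and each was called higher (100%, against 11.6% of all genes). Outside Y, Myrf, a membrane-bound transcription factor gene, had 26.3 and 25.7 CPM in Ago1_2 KO and 0.106 and 0.381 CPM in Dgcr8 KO (log2 fold change 6.76 ± 0.91 SE, edgeR adjusted p 0.00185). Uba7, encoding the activating enzyme of the interferon-induced modifier ISG15, had 21.6 and 22.4 CPM in Ago1_2 KO and 0.211 and 0.254 CPM in Dgcr8 KO (log2 fold change 6.53 ± 0.47 SE, edgeR adjusted p 0.000155). Msln, encoding the surface protein mesothelin, had 35.4 and 29.8 CPM in Ago1_2 KO and 0.528 and 0.508 CPM in Dgcr8 KO (log2 fold change 5.96 ± 0.37 SE, edgeR adjusted p 7.31e-05). The others were Krt17, D13Ertd608e, Sh3rf2, the potassium channel gene Kcnh1 and the calcium channel gene Cacna1c, with log2 fold changes of 5.59 to 6.31.

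The 12 largest changes towards Dgcr8 KO include Lin28a, described above, and are led by T (Brachyury), the founding T-box factor of mesoderm. It had 0 and 0.0748 CPM in Ago1_2 KO and 49.5 and 63.3 CPM in Dgcr8 KO, 1 count in all of Ago1_2 KO, and was lower by 2146-fold (exact 95% binomial interval 385 to 84810.4). Its level was 12.6 and 33.1 CPM in WT and 0.34 and 0.0388 CPM in Drosha KO. Htr5a, a serotonin receptor gene, had 0.318 and 0.449 CPM in Ago1_2 KO and 49.2 and 69.3 CPM in Dgcr8 KO (log2 fold change -7.30 ± 0.49 SE, edgeR adjusted p 0.000107), and Plagl1, an imprinted zinc finger gene, had 9.19 and 8.31 CPM in Ago1_2 KO and 321 and 231 CPM in Dgcr8 KO (log2 fold change -4.97 ± 0.25 SE, edgeR adjusted p 3.25e-05). Both were close to 0 or low in Drosha KO, at 0.284 and 0.698 CPM for Htr5a and 3.86 and 4.81 CPM for Plagl1. Nkx1-2, a homeobox gene of the caudal epiblast, had 3.18 and 4.12 CPM in Ago1_2 KO and 103 and 104 CPM in Dgcr8 KO (log2 fold change -4.84 ± 0.38 SE, edgeR adjusted p 0.00024). Mest, Btla, Cyp2b23, Akap6 and Efhc2 changed by -4.82 to -4.36. The acetyltransferase genes Nat8f3 and Nat8f7 were lower as well: the log2 fold change of Nat8f3 was -5.38 ± 0.58, and Nat8f7 was lower by 79.5-fold (exact 95% binomial interval 26.9 to 389). They are close relatives between which reads may be split. Leaving out single libraries ended the calls of Btla (0.0509) without Ago1_2 KO 1.

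Two-cell-like genes, which mark rare stem cells that resemble the embryo after its first division, were higher in Ago1_2 KO than in Dgcr8 KO. Of 59 listed, 38 were tested, of which 34 were called and each was higher (89.5%, against 11.6% of all genes), with a median of 3.82. Zscan4f, of a family tied to telomere upkeep, had 149 and 354 CPM in Ago1_2 KO and 7.81 and 8.7 CPM in Dgcr8 KO (log2 fold change 4.93 ± 0.40 SE, edgeR adjusted p 0.000255). Zscan4c had 94.1 and 214 CPM in Ago1_2 KO and 3.38 and 4.51 CPM in Dgcr8 KO (log2 fold change 5.29 ± 0.49 SE, edgeR adjusted p 0.000449). Ago1_2 KO 2 was the higher library for both, and it lay above Ago1_2 KO 1 in the sum of the list, at 1811 against 909.6 CPM, with Dgcr8 KO at 131 and 138 CPM. Duxf3, a copy of Dux, the activator of this programme, was scarce at 2.67 and 5.76 CPM in Ago1_2 KO and 0.158 and 0.127 CPM in Dgcr8 KO (log2 fold change 4.80 ± 0.68 SE, edgeR adjusted p 0.00238). Usp17lc, of a deubiquitinase family, changed by 3.79 ± 0.41, and the zinc finger gene Zfp352 by 3.60 ± 0.65. The members not called were AU015228, Pramel7, Zfp809 and Pramel6. Zscan4c had 1.35 and 0.629 CPM in WT and 34.2 and 20.9 CPM in Drosha KO, so Drosha KO lay between Ago1_2 KO and Dgcr8 KO. Many members are close copies of each other between which reads may be split, which makes single members uncertain, and in bulk RNA more cells of the state and more RNA per cell cannot be told apart. With 1 library left out, calls were lost for Zfp352 (0.0881) without Ago1_2 KO 2, Dgcr8 KO 1 or Dgcr8 KO 2.

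Regulators of the two-cell programme were mostly not called: of 34, 5 were higher and 2 lower (14.7% and 5.88%, near the shares of all genes). Ehmt2, the histone H3K9 methyltransferase gene G9a, was higher (log2 fold change 1.37 ± 0.19 SE, edgeR adjusted p 0.00234), as was Dppa2, an activator of Dux (log2 fold change 1.06 ± 0.30 SE, edgeR adjusted p 0.0404). Tet1, which oxidises methylated DNA, had 825 and 646 CPM in Ago1_2 KO and 321 and 209 CPM in Dgcr8 KO (log2 fold change 1.47 ± 0.41 SE, edgeR adjusted p 0.0373). Across the 4 fits lacking 1 compared library, 3, 1, 1 and 1 of them were higher and 1 was lower in each fit; there were 9 higher and 9 lower in the fit of the 4 libraries alone and 8 higher and 2 lower without WT 1 or WT 2. Lost calls under single left-out libraries were those of Dppa2 (0.31) without Ago1_2 KO 2, Dgcr8 KO 1 or Dgcr8 KO 2; Tet1 (0.235) without each of the 4 libraries compared. The GC offset moved the log2 fold change by over 1.5 times, with the call kept, for Ehmt2 (0.77).

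**Figure D4:**
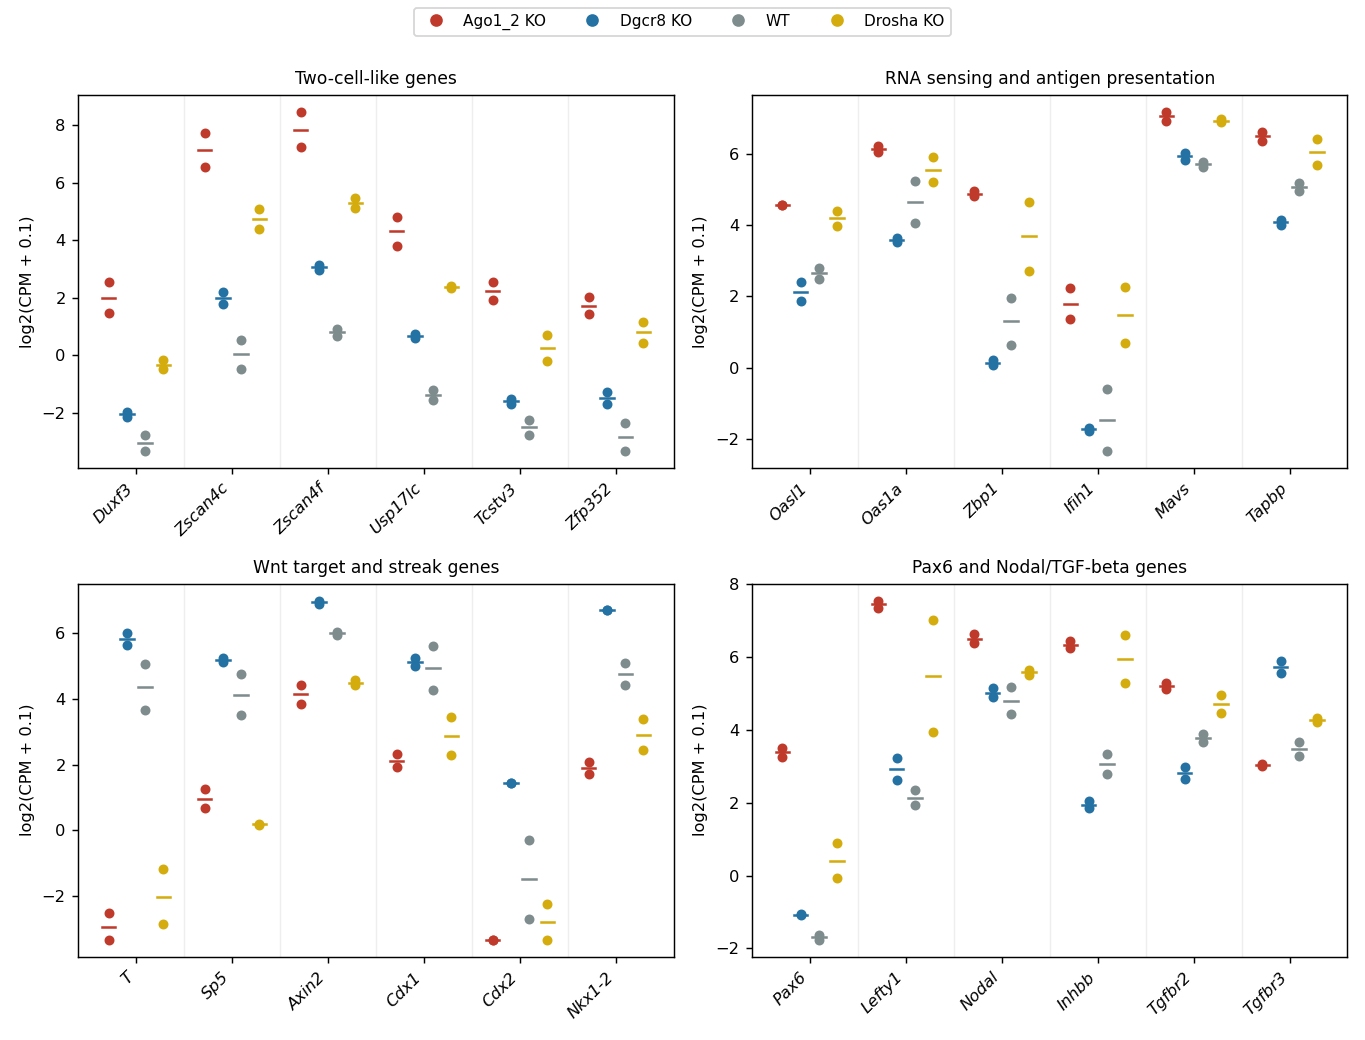
Levels of 24 genes from 4 groups as log2(CPM + 0.1), with 1 point per library and a short line at the mean of each genotype. Two-cell-like and RNA sensing genes are higher in both Ago1_2 KO libraries than in both Dgcr8 KO libraries, while T, Sp5, Axin2, Cdx1, Cdx2 and Nkx1-2 are lower.

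Genes of interferon response and cytosolic RNA sensing were called higher in Ago1_2 KO. Of 38 tested, 20 were called and each was higher (52.6%, against 11.6% of all genes), with a median of 1.22. Oasl1, of the oligoadenylate synthetase family that detects double-stranded RNA, had 23.6 and 23.4 CPM in Ago1_2 KO and 3.54 and 5.21 CPM in Dgcr8 KO (log2 fold change 2.43 ± 0.30 SE, edgeR adjusted p 0.00128). Oas1a, of the same family, had 65.8 and 74.2 CPM in Ago1_2 KO and 11.3 and 12.5 CPM in Dgcr8 KO (log2 fold change 2.56 ± 0.38 SE, edgeR adjusted p 0.0029). Zbp1, a sensor of Z-form nucleic acid, had 27.9 and 31.1 CPM in Ago1_2 KO and 1.06 and 0.953 CPM in Dgcr8 KO (log2 fold change 4.86 ± 0.70 SE, edgeR adjusted p 0.0025), and Mavs, the adaptor of RNA helicase sensors, had 122 and 146 CPM in Ago1_2 KO and 57.1 and 65.4 CPM in Dgcr8 KO (log2 fold change 1.13 ± 0.19 SE, edgeR adjusted p 0.00435). Ifih1, the sensor MDA5, and Eif2ak2, the kinase PKR, changed by 4.11 ± 0.86 and 1.22 ± 0.25. Ifitm1, a membrane restriction factor gene, was the most abundant called member, at 381 and 439 CPM in Ago1_2 KO and 91.6 and 99.9 CPM in Dgcr8 KO. WT and Drosha KO are given for a pair of them. Oas1a had 16.6 and 38 CPM in WT and 59.9 and 37 CPM in Drosha KO, and Mavs had 54.5 and 49.7 CPM in WT and 119 and 125 CPM in Drosha KO. Leaving out the compared libraries 1 by 1, 10, 9, 6 and 7 of them were higher. Calls that ended when 1 library was left out were those of Eif2ak2 (0.113) without each of the 4 libraries compared; Ifih1 (0.103) without Ago1_2 KO 1, Dgcr8 KO 1 or Dgcr8 KO 2; Mavs (0.0775) without Ago1_2 KO 2 or Dgcr8 KO 1.

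Promoters of these genes were searched for a motif tied to the interferon response, which is also what defines the list. The pair of half-sites GAAANNGAAA, bound by interferon regulatory and signal factors, was sought on both strands in the 300 bases from 250 before to 50 after each start (RefSeq, GRCm38.p6), a motif chosen with the values known. It was present in 1079 of 27025 genes (3.99%), in 385 of 11085 tested genes (3.47%), in 14 of 29 tested members (48.3%) and in 10 of 14 called members with a promoter entry (71.4%). A high share in this list follows from how the list was made and says nothing about the difference between the groups. Ddx58, Ifitm3, Rsad2 and Stat2 carried the motif as well and were not called. Matches may overlap when the half-sites repeat. A pair of promoters shows the motif in capitals, on either strand, first in Bst2, the gene of tetherin (16.4 and 20.1 CPM in Ago1_2 KO and 4.06 and 4.51 CPM in Dgcr8 KO), at chr8:71537423-71537722, minus strand.
Bst2: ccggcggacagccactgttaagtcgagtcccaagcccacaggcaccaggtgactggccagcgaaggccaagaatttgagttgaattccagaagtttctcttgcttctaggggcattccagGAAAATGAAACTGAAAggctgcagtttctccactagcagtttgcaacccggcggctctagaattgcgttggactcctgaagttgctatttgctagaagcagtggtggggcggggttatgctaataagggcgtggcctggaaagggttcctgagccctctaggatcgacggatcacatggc
In Ifit1 (chr19:34640639-34640938, plus strand), an interferon effector gene without counts in Dgcr8 KO and at least 28.5-fold higher in Ago1_2 KO, the matches read as their reverse complement.
Ifit1: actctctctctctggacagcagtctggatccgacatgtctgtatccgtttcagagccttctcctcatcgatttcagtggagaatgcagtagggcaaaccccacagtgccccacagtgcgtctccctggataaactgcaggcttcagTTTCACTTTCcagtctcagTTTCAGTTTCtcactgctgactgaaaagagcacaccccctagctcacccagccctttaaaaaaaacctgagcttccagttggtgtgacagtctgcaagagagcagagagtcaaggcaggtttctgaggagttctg
The motif CTTTGAT, a Wnt-related sequence also picked with the values known, was searched in the same way and was found in 1160 of all 27025 (4.29%), in 338 of 11085 tested genes (3.05%), in 2 of 16 tested Wnt target genes and in 1 of 7 called ones, Sp5. A match is a description of these letters and not a measured site. A library left out in turn ended the calls of Bst2 (0.113) without Ago1_2 KO 2, Dgcr8 KO 1 or Dgcr8 KO 2; Ifit1 (0.14) without each of the 4 libraries compared.

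Of 16 tested genes of antigen presentation on MHC class I, 5 were called, each higher (31.3%, against 11.6% of all genes), with a median of 1.59. Tapbp, which loads peptides, had 83 and 98 CPM in Ago1_2 KO and 16.1 and 17.7 CPM in Dgcr8 KO (log2 fold change 2.42 ± 0.27 SE, edgeR adjusted p 0.000784). The class I heavy chain gene H2-K1 had 7.36 and 8.68 CPM in Ago1_2 KO and 2.27 and 1.65 CPM in Dgcr8 KO (log2 fold change 2.02 ± 0.34 SE, edgeR adjusted p 0.00459). Both groups were below WT, at 15.7 and 11 CPM, and H2-Q4 changed by 2.16 ± 0.30 on the log2 scale. Class I genes are close relatives, so reads may be split among them. Among 26 genes of retroelement restriction and chromatin silencing 4 were higher and 2 lower (15.4% and 7.69%, near the 11.6% and 5.54% of all genes). The antiviral deaminase gene Apobec3 had 271 and 272 CPM in Ago1_2 KO and 105 and 98.7 CPM in Dgcr8 KO (log2 fold change 1.42 ± 0.19 SE, edgeR adjusted p 0.00195). Over the 4 fits without a compared library, 3, 3, 3 and 2 class I genes were higher; there were 11 higher in the fit of the 4 libraries alone and 8 higher without Drosha KO 1 or Drosha KO 2. With each compared library left out in turn, 3, 2, 2 and 2 restriction and silencing genes were higher and 0 were lower in each fit; there were 4 higher and 1 lower with the GC offset and 8 higher and 8 lower in the fit of the 4 libraries alone. Leaving out single libraries ended the calls of H2-K1 (0.0705) without Dgcr8 KO 2.

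Wnt target genes were lower in Ago1_2 KO more often than higher. Of 23 tested, 7 were lower (30.4%, against 5.54%) and 3 higher (13%, against 11.6%), with a median of -0.58. Beside T, Axin2, the negative feedback gene most used to read beta-catenin signalling, had 14.2 and 21.4 CPM in Ago1_2 KO and 116 and 126 CPM in Dgcr8 KO (log2 fold change -2.77 ± 0.24 SE, edgeR adjusted p 0.000344). Sp5, a zinc finger target, had 2.27 and 1.5 CPM in Ago1_2 KO and 34.5 and 37.5 CPM in Dgcr8 KO (log2 fold change -4.22 ± 0.44 SE, edgeR adjusted p 0.000619), and the caudal homeobox gene Cdx1 had 3.66 and 4.86 CPM in Ago1_2 KO and 31.9 and 37.1 CPM in Dgcr8 KO (log2 fold change -3.03 ± 0.50 SE, edgeR adjusted p 0.00425). Cdx2 had no counts in Ago1_2 KO and 2.64 and 2.6 CPM in Dgcr8 KO, at least 33.7-fold lower. Rnf43 and Dkk1, feedback inhibitors, were the others lower. Tcf7l1, the repressor TCF3, was higher (log2 fold change 1.56 ± 0.24 SE, edgeR adjusted p 0.00349), and so were Sfrp1 and Apcdd1, secreted or membrane Wnt inhibitors. All libraries were grown with a GSK3 inhibitor, which activates this pathway. When the 4 compared libraries were left out singly, 3, 1, 0 and 1 of them were higher and 4, 4, 5 and 5 were lower; there were 6 higher and 12 lower in the fit of the 4 libraries alone. With 1 library left out, calls were lost for Apcdd1 (0.119) and Sfrp1 (0.0765) without Ago1_2 KO 2, Dgcr8 KO 1 or Dgcr8 KO 2; Cdx2 (0.0653) without Ago1_2 KO 1 or Ago1_2 KO 2; Rnf43 (0.0899) without each of the 4 libraries compared; Tcf7l1 (0.0561) without Dgcr8 KO 1. The GC offset moved the log2 fold change by over 1.5 times, with the call kept, for Tcf7l1 (1.02).

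Primitive streak and mesoderm genes went both ways, with 6 of 18 lower and 5 higher (33.3% and 27.8%, against 5.54% and 11.6% of all genes). Bmp4, a ligand of mesoderm induction, was lower (log2 fold change -2.16 ± 0.43 SE, edgeR adjusted p 0.00935) with the streak factor Eomes (log2 fold change -1.33 ± 0.34 SE, edgeR adjusted p 0.0252), while Kdr, a receptor of vessel precursors, was higher at 14.9 and 13.8 CPM in Ago1_2 KO and 3.64 and 2.35 CPM in Dgcr8 KO (log2 fold change 2.25 ± 0.47 SE, edgeR adjusted p 0.0121). Of 39 Hox genes, which pattern the trunk, 23 were tested. Of these 4 were lower (17.4%, against 5.54% of all genes), Hoxc8, Hoxc4, Hoxc5 and Hoxc6, from 1 cluster on chromosome 15. Hoxc4 had 0.637 and 0.973 CPM in Ago1_2 KO and 4.96 and 6.23 CPM in Dgcr8 KO (log2 fold change -2.83 ± 0.66 SE, edgeR adjusted p 0.0185). Across the 4 fits lacking 1 compared library, 1, 0, 0 and 0 streak and mesoderm genes were higher and 2, 3, 3 and 3 were lower; there were 2 higher and 6 lower with the GC offset. Leaving out the compared libraries 1 by 1, 0, 1, 0 and 0 Hox genes were lower; there were 10 lower in the fit of the 4 libraries alone and 7 lower without Drosha KO 1. Lost calls under single left-out libraries were those of Bmp4 (0.0727) and Hoxc8 (0.134) without Ago1_2 KO 1, Dgcr8 KO 1 or Dgcr8 KO 2; Eomes (0.206), Hoxc4 (0.138), Hoxc5 (0.241), Hoxc6 (0.259) and Kdr (0.125) without each of the 4 libraries compared.

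Of 27 Nodal and TGF-beta genes 6 were higher (22.2%, against 11.6% of all genes) and 3 lower (11.1%, against 5.54%), with a median of 0.64. Among ligands, Inhbb, an activin subunit, had 75.6 and 86.2 CPM in Ago1_2 KO and 4.01 and 3.49 CPM in Dgcr8 KO (log2 fold change 4.42 ± 0.44 SE, edgeR adjusted p 0.000567), and Nodal had 83 and 99 CPM in Ago1_2 KO and 29.8 and 35.1 CPM in Dgcr8 KO (log2 fold change 1.49 ± 0.26 SE, edgeR adjusted p 0.00567). Lefty1 and the receptor gene Tgfbr2 are described above. Tgfbr3, a co-receptor, went the other way at 8.32 and 8.01 CPM in Ago1_2 KO and 59.7 and 47 CPM in Dgcr8 KO (log2 fold change -2.71 ± 0.24 SE, edgeR adjusted p 0.000404), and Fst, which binds and blocks activin, was lower at 16.2 and 15.7 CPM in Ago1_2 KO and 51 and 59.8 CPM in Dgcr8 KO (log2 fold change -1.79 ± 0.26 SE, edgeR adjusted p 0.0025). Of the transducers, Foxh1 and Smad3 were higher by 0.91 ± 0.24 and 0.95 ± 0.25. Over the 4 fits without a compared library, 4, 3, 3 and 3 Nodal and TGF-beta genes were higher and 2 were lower in each fit; there were 15 higher and 5 lower in the fit of the 4 libraries alone, 10 higher and 4 lower without WT 1 or WT 2, 10 higher and 3 lower without Drosha KO 1 and 11 higher and 3 lower without Drosha KO 2. Of 18 BMP and Id genes 3 were higher and 2 lower (16.7% and 11.1%, against 11.6% and 5.54% of all genes). Id2, a helix-loop-helix inhibitor, was among the higher ones (log2 fold change 2.54 ± 0.52 SE, edgeR adjusted p 0.0112). With each compared library left out in turn, 3, 1, 1 and 0 BMP and Id genes were higher and 0, 1, 0 and 0 were lower; there were 3 higher and 1 lower with the GC offset and 4 higher and 5 lower in the fit of the 4 libraries alone. Calls that ended when 1 library was left out were those of Foxh1 (0.208) and Smad3 (0.207) without each of the 4 libraries compared; Id2 (0.107) without Ago1_2 KO 2, Dgcr8 KO 1 or Dgcr8 KO 2; Nodal (0.0768) without Ago1_2 KO 2 or Dgcr8 KO 1. Under the GC offset, calls were lost for Foxh1 (0.39, adjusted p 0.193) and Smad3 (0.84, adjusted p 0.0786).

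Imprinted genes were lower more often than the background, with 10 of 47 lower (21.3%) and 5 higher (10.6%). Peg10, derived from a retrotransposon, had 39.5 and 24.5 CPM in Ago1_2 KO and 156 and 163 CPM in Dgcr8 KO (log2 fold change -2.31 ± 0.41 SE, edgeR adjusted p 0.00602), and Mest, a hydrolase-like gene that hosts miR-335, had 1.75 and 2.54 CPM in Ago1_2 KO and 58.5 and 60.5 CPM in Dgcr8 KO (log2 fold change -4.82 ± 0.48 SE, edgeR adjusted p 0.000567). Snrpn, a spliceosome gene of the Prader-Willi region, had 17.7 and 22.1 CPM in Ago1_2 KO and 59.6 and 56.9 CPM in Dgcr8 KO (log2 fold change -1.56 ± 0.23 SE, edgeR adjusted p 0.00273). Plagl1, Peg10, Mest and Snrpn are known to be expressed from the paternal allele. The other called members, higher or lower, were not sorted by parental allele, and no allele was measured. Higher were Gnas, the stimulatory G protein gene (log2 fold change 1.35 ± 0.21 SE, edgeR adjusted p 0.00336), Dio3, a thyroid hormone deiodinase gene (log2 fold change 4.35 ± 0.67 SE, edgeR adjusted p 0.00338), and Phlda2, a placental growth inhibitor. Phlda2 had 1 count in Dgcr8 KO and was higher by 142-fold (exact 95% binomial interval 25.2 to 5659). Phlda2 had 4.68 and 11.2 CPM in WT and 5.79 and 10.9 CPM in Drosha KO. When the 4 compared libraries were left out singly, 3, 4, 1 and 3 of them were higher and 7, 5, 5 and 6 were lower; there were 3 higher and 9 lower with the GC offset and 11 higher and 16 lower in the fit of the 4 libraries alone. A library left out in turn ended the calls of Gnas (0.062) and Phlda2 (0.0758) without Dgcr8 KO 1.

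Germline genes, many silenced by DNA methylation, had 9 of 46 lower and 5 higher (19.6% and 10.9%, against 5.54% and 11.6% of all genes). Lower were 5 Xlr genes of the X chromosome, among them Xlr3b at 3.74 and 2.62 CPM in Ago1_2 KO and 24.3 and 24.8 CPM in Dgcr8 KO (log2 fold change -2.93 ± 0.38 SE, edgeR adjusted p 0.00156). Stra8, which starts meiosis, was higher at 139.7 and 53.9 CPM in Ago1_2 KO and 10.3 and 10.7 CPM in Dgcr8 KO (log2 fold change 3.21 ± 0.62 SE, edgeR adjusted p 0.00868), with WT at 76.6 and 20.7 CPM. Of 34 Rhox genes, an X-linked homeobox cluster of germline and placenta, 6 were tested. Of these 4 were higher (66.7%, against 11.6% of all genes). Rhox9 had 20.7 and 7.71 CPM in Ago1_2 KO and 0.317 and 0.318 CPM in Dgcr8 KO (log2 fold change 5.47 ± 0.70 SE, edgeR adjusted p 0.00152) and Rhox5 had 49.6 and 48 CPM in Ago1_2 KO and 2.96 and 3.94 CPM in Dgcr8 KO (log2 fold change 3.83 ± 0.85 SE, edgeR adjusted p 0.0151). Xlr copies are near-identical. Among 24 DNA methylation genes 5 were higher and 1 lower (20.8% and 4.17%, against 11.6% and 5.54% of all genes). Uhrf2 was the lower gene (log2 fold change -1.42 ± 0.21 SE, edgeR adjusted p 0.00256). Dnmt3a, a de novo methyltransferase gene, was higher (log2 fold change 0.99 ± 0.26 SE, edgeR adjusted p 0.028). In the 4 fits lacking 1 compared library, 2, 5, 0 and 0 germline genes were higher and 3, 2, 5 and 3 were lower; there were 11 higher and 14 lower in the fit of the 4 libraries alone. Leaving out the compared libraries 1 by 1, 2, 3, 1 and 1 Rhox genes were higher. Over the 4 fits without a compared library, 1 DNA methylation gene was higher in each fit and 1 was lower in each fit; there were 11 higher and 5 lower in the fit of the 4 libraries alone and 9 higher and 3 lower without WT 1 or WT 2. Leaving out single libraries ended the calls of Dnmt3a (0.206) without each of the 4 libraries compared; Rhox5 (0.115) without Ago1_2 KO 2, Dgcr8 KO 1 or Dgcr8 KO 2; Stra8 (0.0748) without Dgcr8 KO 1 or Dgcr8 KO 2.

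Naive pluripotency genes had 6 of 37 higher and 1 lower (16.2% and 2.70%), near the 11.6% and 5.54% of all genes. Utf1, a chromatin factor gene, had 27.5 and 45.1 CPM in Ago1_2 KO and 4.91 and 7.5 CPM in Dgcr8 KO (log2 fold change 2.55 ± 0.32 SE, edgeR adjusted p 0.00141) and Fgf4, the growth factor that starts exit from the naive state, had 345 and 352 CPM in Ago1_2 KO and 154 and 145 CPM in Dgcr8 KO (log2 fold change 1.22 ± 0.21 SE, edgeR adjusted p 0.00509). Gbx2, a homeobox gene downstream of LIF, was the lower one at 2.51 and 3.44 CPM in Ago1_2 KO and 15.3 and 22 CPM in Dgcr8 KO (log2 fold change -2.66 ± 0.38 SE, edgeR adjusted p 0.0024). Of 24 formative and primed genes 4 were higher (16.7%, also near that share), among them Otx2 (log2 fold change 1.47 ± 0.34 SE, edgeR adjusted p 0.0169) and Fgf5 (log2 fold change 2.81 ± 0.81 SE, edgeR adjusted p 0.0408), and the FGF target Etv4 was lower. FGF and ERK feedback genes had 8 of 28 higher and 3 lower (28.6% and 10.7%), with the feedback inhibitor Spry2 lower (log2 fold change -1.76 ± 0.24 SE, edgeR adjusted p 0.00195). With each compared library left out in turn, 4, 2, 1 and 1 naive genes were higher and 1 was lower in each fit; there were 16 higher and 5 lower in the fit of the 4 libraries alone and 10 higher and 2 lower without WT 1 or WT 2. When the 4 compared libraries were left out singly, 1, 0, 0 and 0 formative and primed genes were higher and 0 were lower in each fit; there were 9 higher and 5 lower in the fit of the 4 libraries alone, 4 higher and 2 lower without WT 1, 5 higher and 2 lower without WT 2, 5 higher and 3 lower without Drosha KO 1 and 6 higher and 3 lower without Drosha KO 2. In the 4 fits lacking 1 compared library, 3, 3, 0 and 0 FGF and ERK genes were higher and 1 was lower in each fit; there were 12 higher and 8 lower in the fit of the 4 libraries alone and 10 higher and 5 lower without Drosha KO 1 or Drosha KO 2. With 1 library left out, calls were lost for Etv4 (0.2), Fgf5 (0.222) and Otx2 (0.195) without each of the 4 libraries compared; Fgf4 (0.0734) without Dgcr8 KO 1 or Dgcr8 KO 2.

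The shares of neural and trophectoderm genes called higher were above the 11.6% of all genes. Of 36 neural genes listed, 19 passed the low-count filter, and 12 of these were called, each higher (63.2%), with a median of 1.48. Pax6, the eye and forebrain regulator, had 11.3 and 9.43 CPM in Ago1_2 KO and 0.369 and 0.381 CPM in Dgcr8 KO (log2 fold change 4.77 ± 0.50 SE, edgeR adjusted p 0.000677), with 0.226 and 0.193 CPM in WT and 1.76 and 0.853 CPM in Drosha KO, so both Ago1_2 KO libraries lay above the other 6. Notch1, a receptor of neural progenitors, had 95.8 and 95.9 CPM in Ago1_2 KO and 37 and 30.6 CPM in Dgcr8 KO (log2 fold change 1.5 ± 0.25 SE, edgeR adjusted p 0.00473), and Tubb3, a neuronal tubulin gene, had 33.4 and 46.7 CPM in Ago1_2 KO and 5.49 and 4.89 CPM in Dgcr8 KO (log2 fold change 2.94 ± 0.51 SE, edgeR adjusted p 0.00558). Of 25 trophectoderm genes 11 were higher and 4 lower, with a median of 1.49. Lgals3, a galectin gene, had 72 and 106 CPM in Ago1_2 KO and 8.13 and 8.96 CPM in Dgcr8 KO (log2 fold change 3.38 ± 0.54 SE, edgeR adjusted p 0.00399). Tead4, the Hippo effector needed for trophectoderm, had 77.3 and 82.6 CPM in Ago1_2 KO and 30.9 and 32.2 CPM in Dgcr8 KO (log2 fold change 1.34 ± 0.24 SE, edgeR adjusted p 0.006). Other trophectoderm regulators went both ways: Cdx2, Eomes and Tfap2a were lower, and Tfap2c and Gata2 were called higher. The calls of Tfap2c and Gata2 ended when some single libraries were left out. Of 29 endoderm genes listed, 16 were tested. Of these 5 were higher (31.3%) and 3 lower (18.8%, against 5.54%), with the endoderm regulator Gata4 higher and Hnf4a lower. Leaving out the compared libraries 1 by 1, 3, 1, 1 and 1 endoderm genes were higher and 1 was lower in each fit; there were 3 higher and 3 lower with the GC offset. Over the 4 fits without a compared library, 10, 7, 4 and 3 neural genes were higher. With each compared library left out in turn, 7, 7, 2 and 3 trophectoderm genes were higher and 1, 1, 2 and 2 were lower. Lost calls under single left-out libraries were those of Gata4 (0.264) and Hnf4a (0.214) without each of the 4 libraries compared; Notch1 (0.0655) without Dgcr8 KO 2; Tead4 (0.074) and Tubb3 (0.058) without Dgcr8 KO 1 or Dgcr8 KO 2; Tfap2a (0.0611) without Ago1_2 KO 1, Dgcr8 KO 1 or Dgcr8 KO 2. With the GC offset the calls of Gata4 (1.06, adjusted p 0.0856) and Tead4 (0.89, adjusted p 0.0669) ended.

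Genes of matrix receptors and of the contractile cytoskeleton were called higher more often than the background of 11.6%. Of 28 integrin and laminin genes 14 were higher (50%) and 2 lower, with a median of 1.15. Itga5, the fibronectin receptor subunit, had 167 and 201 CPM in Ago1_2 KO and 51.5 and 52.3 CPM in Dgcr8 KO (log2 fold change 1.83 ± 0.19 SE, edgeR adjusted p 0.000606), and Itga3, a laminin receptor subunit, had 37.4 and 53.6 CPM in Ago1_2 KO and 5.12 and 6.93 CPM in Dgcr8 KO (log2 fold change 2.92 ± 0.32 SE, edgeR adjusted p 0.000821). Lama3, a laminin chain gene, was higher (log2 fold change 2.82 ± 0.48 SE, edgeR adjusted p 0.00483). Of 30 contractile and matricellular genes 14 were called, each higher (46.7%). Myh9, a non-muscle myosin heavy chain gene, had 194 and 227 CPM in Ago1_2 KO and 39.9 and 45.3 CPM in Dgcr8 KO (log2 fold change 2.31 ± 0.27 SE, edgeR adjusted p 0.000976), and Tpm2, a tropomyosin gene, changed by 3.29 ± 0.39. WT levels of Myh9 were 213 and 129 CPM, in the range of Ago1_2 KO or below. Of 44 collagen genes 23 were tested, with 8 higher and 1 lower, led by Col9a2 (log2 fold change 2.32 ± 0.35 SE, edgeR adjusted p 0.0029). Col1a1, a fibroblast marker too, was among them, and the part of other cell types was not tested. When the 4 compared libraries were left out singly, 9, 6, 4 and 4 integrin and laminin genes were higher and 2, 0, 1 and 2 were lower. In the 4 fits lacking 1 compared library, 9, 6, 6 and 7 contractile genes were higher. Leaving out the compared libraries 1 by 1, 4, 1, 1 and 2 collagen genes were higher and 0 were lower in each fit; there were 5 higher and 1 lower with the GC offset, 13 higher and 2 lower in the fit of the 4 libraries alone and 10 higher and 2 lower without Drosha KO 1 or Drosha KO 2. Calls that ended when 1 library was left out were those of Lama3 (0.0589) without Dgcr8 KO 1.

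Among metabolic lists, cholesterol and glucose genes were called higher more often than the 11.6% of all genes. Of 27 cholesterol synthesis and uptake genes 11 were called, each higher (40.7%), with a median of 0.57. Srebf2, the transcription factor of this pathway, had 336 and 347 CPM in Ago1_2 KO and 142 and 144 CPM in Dgcr8 KO (log2 fold change 1.26 ± 0.18 SE, edgeR adjusted p 0.00225). The enzyme genes Mvd and Sqle changed by 1.48 ± 0.24 and 0.98 ± 0.18. Of 25 glycolysis genes 8 were called, each higher (32%). Hk1, a hexokinase gene, had 188 and 237 CPM in Ago1_2 KO and 44.1 and 46.3 CPM in Dgcr8 KO (log2 fold change 2.23 ± 0.24 SE, edgeR adjusted p 0.000717), and Aldoc, an aldolase gene, had 38.2 and 41.1 CPM in Ago1_2 KO and 9.76 and 14 CPM in Dgcr8 KO (log2 fold change 1.74 ± 0.27 SE, edgeR adjusted p 0.0032), with WT at 42.7 and 48.7 CPM. Over the 4 fits without a compared library, 3, 4, 2 and 2 cholesterol genes were higher. With each compared library left out in turn, 4, 3, 1 and 2 glycolysis genes were higher; there were 16 higher in the fit of the 4 libraries alone and 13 higher without WT 2. A library left out in turn ended the calls of Aldoc (0.053) and Mvd (0.0687) without Dgcr8 KO 1; Sqle (0.0926) without Ago1_2 KO 1, Dgcr8 KO 1 or Dgcr8 KO 2. The GC offset moved the log2 fold change by over 1.5 times, with the call kept, for Mvd (0.97) and Srebf2 (0.82).

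Growth and housekeeping lists differed in how many members were called. Of 34 DNA replication and mitosis genes 6 were called, each lower (17.6%, against 5.54% of all genes), with a median of -0.38; Mcm10, of the replication fork, changed by -0.65 ± 0.17 and the cyclin gene Ccnb1 by -0.75 ± 0.20. When the 4 compared libraries were left out singly, 0 of them were lower in each fit; there were 3 lower with the GC offset, 18 lower in the fit of the 4 libraries alone, 12 lower without WT 1 and 11 lower without WT 2. Of 24 Hippo genes 8 were called, each higher (33.3%), such as Ajuba (log2 fold change 0.96 ± 0.23 SE, edgeR adjusted p 0.0218), an adaptor that restrains the pathway's kinases. In the 4 fits lacking 1 compared library, 1, 1, 0 and 0 Hippo genes were higher; there were 3 higher with the GC offset. Cytosolic ribosomal protein genes had 2 of 85 called, mitochondrial ones 3 of 77 and respiratory chain genes with their assembly factors 1 of 93, all below the 17.1% of all genes. Of 38 ATF4 and amino acid stress genes 5 were called, of 36 lysosome and autophagy genes 2 and of 25 endoplasmic reticulum chaperone genes 1, each list again below 17.1%. Of 32 genes of the G1 to S step 3 were called, Ccnd2 and the inhibitor Cdkn1c higher and Ccna2 lower. Of 30 apoptosis genes 3 were called, Birc3 higher and Bid and Trp53inp1 lower. Both lists were below 17.1% as well. Replication-dependent histone genes had 1 of 7 higher (14.3%, against 11.6%), and X-inactivation genes 1 of 4 lower (25%, against 5.54%), Ftx. None of 20 aminoacyl-tRNA synthetase genes was called by edgeR, DESeq2 or limma-voom, where edgeR gave 2 an unadjusted p under 0.05 and the fit of the 4 libraries alone called 5. Leaving out single libraries ended the calls of Ajuba (0.162), Birc3 (0.228), Ccna2 (0.16), Ccnb1 (0.288), Mcm10 (0.218) and Trp53inp1 (0.246) without each of the 4 libraries compared; Bid (0.0693) without Ago1_2 KO 2, Dgcr8 KO 1 or Dgcr8 KO 2; Cdkn1c (0.217) without Ago1_2 KO 1, Dgcr8 KO 1 or Dgcr8 KO 2. The GC offset ended the calls of Ajuba (0.50, adjusted p 0.272), Ccnb1 (-0.51, adjusted p 0.106), Cdkn1c (3.51, adjusted p 0.0502), Mcm10 (-0.55, adjusted p 0.0513) and Trp53inp1 (-0.55, adjusted p 0.0739).

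**Figure D5:**
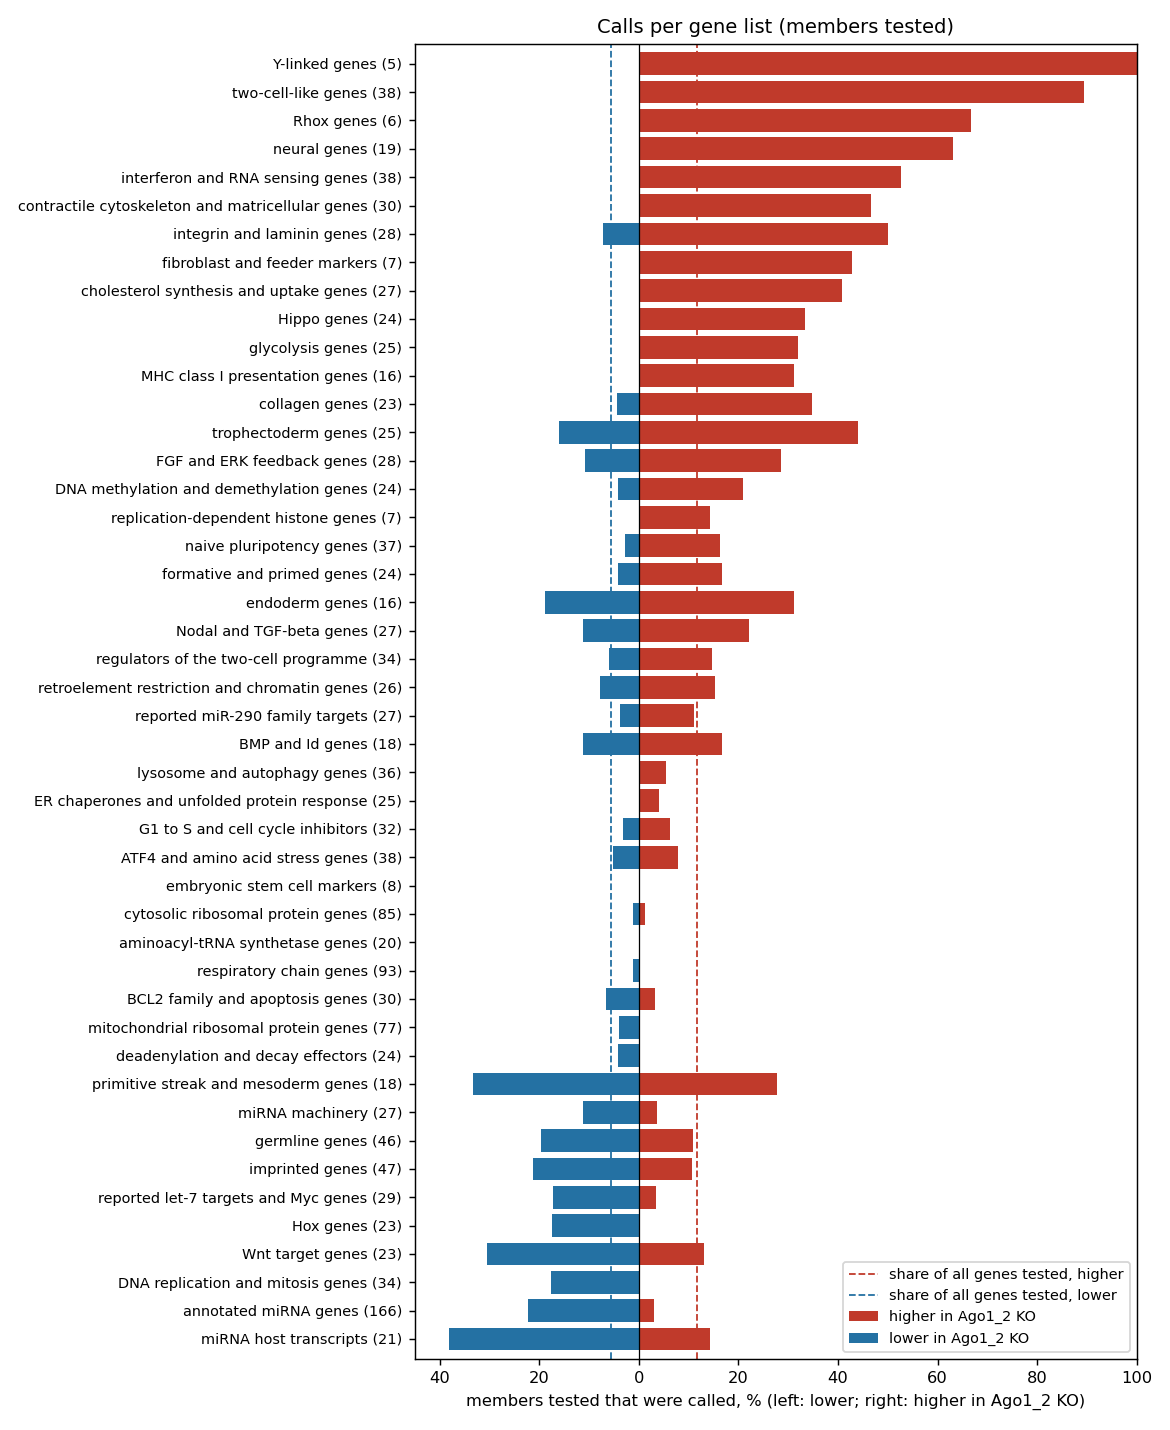
Share of the tested members of each gene list called higher (right) or lower (left) in Ago1_2 KO than in Dgcr8 KO, for lists with 5 or more members tested (number in brackets). Dashed lines mark the share of all genes tested, 11.6% higher and 5.54% lower. On the higher side Y-linked genes reach 100% with 5 tested, and two-cell-like genes 89.5%. On the lower side miRNA host transcripts reach 38.1%.

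The Drosha KO and WT libraries, which were not part of the contrast, were set beside these differences. For the 1900 genes higher in Ago1_2 KO, the Drosha KO mean lay nearer to Ago1_2 KO than to Dgcr8 KO in 1516 (79.8%), and for the 908 lower genes in 758 (83.5%), against 70.0% of all genes tested. Primary miRNA transcripts are among the exceptions, with Mir17hg at 176 and 90.9 CPM and Mir291a at 24.9 and 19.6 CPM in Drosha KO, against 1.27 and 1.5 CPM in Ago1_2 KO and 9.02 and 9.91 CPM in Dgcr8 KO. The WT mean lay between the groups for 1226 of the 1900 higher and 635 of the 908 lower genes. Over all 16388 genes tested, it did so for 5313. Genes called for a wide gap between the groups hold the mean of another genotype in that gap more often, so these counts do not place WT. The WT mean was nearer to Ago1_2 KO for 39.2% of the higher and 39.4% of the lower genes, against 46.4% of all genes. These shares are descriptions over genes, and each genotype has 2 libraries.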

How the data were processed

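The authors deposited whole-number counts per gene for each library; reads were aligned to mm10 (GRCm38) with STAR 2.4.2a, per the submitters' processing notes. Which tool counted the reads, on which strand and with which annotation release is not stated in the sources used here. Per the labels' protocols, RNA was polyadenylated and libraries were reverse-stranded. No sequencing batch is labelled, and 0 count columns were left unused. Gene versions were matched to GENCODE M21, which gave 47224 of 47643 genes a symbol.

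Counts were fitted with edgeR 4.0.16 in R 4.3.3 (robust quasi-likelihood F test, TMM scaling, 1 mean per genotype, all 8 libraries), after edgeR's low-count filter by genotype. A gene was called at a Benjamini-Hochberg adjusted p under 0.05 over 16388 genes; SE is the log2 fold change divided by the root of F. CPM use TMM-scaled library sizes. Folds against 0 counts use a floor of 3 counts per group, and ratios with 1 to 3 counts have exact 95% binomial intervals; both cover counting error only. Alternatives used DESeq2 1.42.0, limma-voom 3.58.1, other scalings and filters, a 2-fold limit, a GC offset, a replicate block, the 4 libraries alone and each library left out.

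Named genes are the targeted and other Argonaute genes, the miR-290 cluster, the 12 largest called changes in each direction with a mean of 5 CPM or more in either group, the 4 members with the lowest p in each list at most, and members a description turns on. The members, lists and motifs were chosen with earlier results of these data known. On counts simulated for this comparison over 16011 genes, 18% of 100 genes changed 2-fold and 78% of 100 changed 4-fold were recovered, with 3 false calls. A few genes that this rule names are not reported here.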

Additional observations from a re-analysis of the deposited data

How the results depend on the processing

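No gene called in the comparison of Ago1_2 KO with Dgcr8 KO was called with the opposite sign under any alternative run. Medians of 9 gene lists near 0 changed sign under at least 1 alternative; the widest such move was that of primitive streak and mesoderm genes, from 0.13 to -0.42 in the fit of the 4 libraries alone, and the cause was not tested. Requiring a change beyond 2-fold left 661 called genes, 533 higher and 128 lower, and 140 of the 334 called list members. A fit of the 4 libraries alone called 7171 genes, 4024 higher and 3147 lower, and 695 list members; its spread rests on 2 libraries per group. Leaving out 1 library gave 513 to 4239 calls, of which 373 to 2668 were higher and 126 to 1573 lower, and 118 to 448 list members; the lone library left in a group was assumed to vary like the other groups. Without WT 1 or WT 2 the number of lower genes rose to 1573 and 1566. DESeq2, limma-voom, the other scalings and filters and the GC offset gave 2367 to 3809 calls. Numbers 1 and 2 recur in each genotype, with nothing in the labels to say that they mark a shared day. Deviations of same-numbered libraries correlated by 0.0963 to 0.245 between genotypes, and a fit with the replicate number as a block called 3620 genes, or 2777 with the GC offset as well; with 2 numbers this was not taken as pairing. With the spread of all 8 libraries, which the simulation used, most 2-fold changes were not recovered. That spread was uneven. Between the 2 libraries of a group, chi-square per gene against counting noise was 127 in WT and 70.8 in Drosha KO. It was 19.7 in Ago1_2 KO and 16.7 in Dgcr8 KO. Recovery with the spread of the 4 compared libraries alone was not simulated.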
